A study of Rattus norvegicus with 4 samples.

Results

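The soleus is a calf muscle made mostly of slow fibres that hold posture. It was compared with and without overload in male rats whose muscle had been injured and had regenerated. Regenerated soleus came from rats aged 16 weeks, 8 weeks after an injection that the labels call CTX and do not expand. Regenerated overloaded soleus came from rats aged 18 weeks; the labels give neither the time since its injection nor the way the load was raised. Each group is 1 one-colour Agilent array of RNA from 6 muscles mixed in equal amounts, so n = 1 for each group, no difference below has a replicate check and no p-value is given. These are 2 of the 4 arrays of the series. The other two hold normal soleus (16 weeks) and overloaded soleus labelled as hypertrophied (18 weeks), here called uninjured, since their labels name no injection. Of 26633 genes and transcripts on the array, 10022 were kept, 8384 of them with a gene symbol: those read by a probe with 2 or more spots, well above background on both arrays.

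Chronic overload makes skeletal muscle fibres thicken. Growth of the fibre is accompanied by remodelling of the collagen-rich matrix around it, which fibroblasts lay down and which passes force to the tendon, by division of satellite cells and other resident cells, and by a shift of fibre proteins toward slow isoforms. Muscle that has regenerated after a toxin injury is formed by fusion of satellite cell progeny and often keeps more connective tissue than muscle that was never injured.

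Levels are given as scaled signal, the fluorescence of a gene's probe divided by the 75th percentile of its array, and are compared only within a gene, since probes differ in brightness. Differences are log2(regenerated overloaded / regenerated), with a technical standard error (SE) that comes from repeated spots on the same array and holds no variation between muscles or arrays. The 75th percentile was 740 intensity units for regenerated and 790 for regenerated overloaded soleus, and 68.9% and 68.1% of probe spots were well above background. The 2 arrays lay in different rows of 1 slide (row 1 and row 2), and slide row and age go with overload, so the 3 cannot be told apart. All 8 muscle fibre markers were above background on both arrays. Of 5 hepatocyte markers, Alb, Apoa1 and Fgb were below background on both and the other 2 above it. Of 5 heart muscle markers, Nppa, Myl7 and Mybpc3 were below background on both and the other 2 above it.

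Overload left most of the measured transcripts near their level in regenerated soleus, and where levels differed 2-fold they were mostly higher. In all, 124 genes (1.24%) were 2-fold or more higher and 23 (0.229%) 2-fold or more lower. At 1.5-fold the counts were 424 higher (4.23%) and 172 lower (1.72%), a split that came to 349 and 260 when arrays were scaled to their median. The median difference was -0.02, 90% of genes lay between -0.42 and 0.54, and 78.4% lay within 1.25-fold. Dim genes were more often past 2-fold than bright ones: 47 of those higher and 10 of those lower by 2-fold belonged to the dimmest 2506 genes, where the median technical SE was 0.24, and 18 and 4 to the brightest 2506, where it was 0.05. The largest difference of all was that of ENSRNOT00000040702, a transcript to which the reference table gives no symbol, at 31.8 and 1.38 (-4.53, technical SE 0.05), against 0.131 and 0.112 in normal and overloaded uninjured soleus; regenerated soleus was the high array. The gene with the largest higher value was Cthrc1, a secreted regulator of collagen deposition. Lowest of the genes with a symbol were Igll1, a light chain-like gene of B cells, and Abra, an actin-binding protein of the sarcomere.

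**Figure D1:**
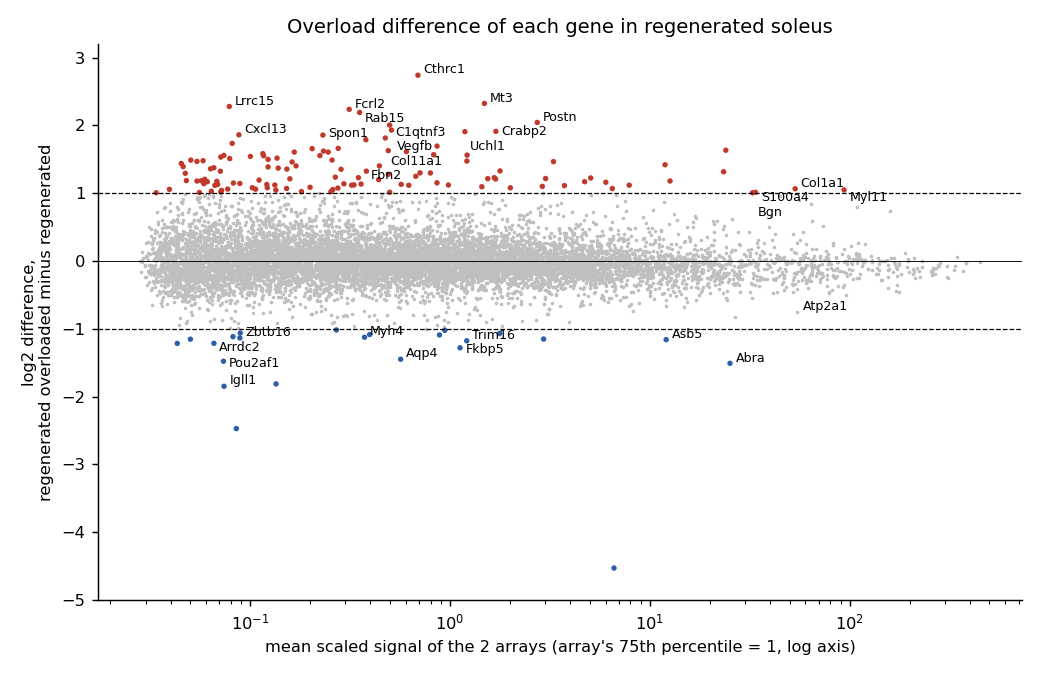
Log2 difference of each of the 10022 kept genes (regenerated overloaded minus regenerated soleus, 1 pooled array each) against its mean scaled signal on a log axis; dashed lines mark 2-fold, red points are 2-fold or more higher and blue points 2-fold or more lower. The 124 higher genes reach 2.74 for Cthrc1, and bright genes such as Col1a1 (1.07) and Myl11 (1.05) lie just past the line.

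Matrix genes were prominent among the higher signals. Cthrc1 had a scaled signal of 0.268 in regenerated and 1.79 in regenerated overloaded soleus, a 6.68-fold difference (log2 2.74, technical SE 0.07). Postn, periostin, a matricellular protein of stressed connective tissue, was at 1.35 and 5.55 (2.04). Lum, lumican, and Aspn, asporin, small leucine-rich proteoglycans that bind collagen, were at 0.709 and 2.09 (1.56) and at 1.12 and 2.82 (1.33). Each of these stood higher with overload on every pair of spots compared. Thbs2, thrombospondin 2, was 2.22-fold higher, and Bgn, biglycan, 2.01-fold higher on its brightest probe, while its other probe differed by 0.24. Fn1, fibronectin, at 13.7 and 21.3 (0.64), Vcan, versican, at 0.717 and 1.15 (0.69), and Ogn, osteoglycin, at 5.50 and 10.1 (0.88), passed 1.5-fold. Of 28 small proteoglycans and glycoproteins on the array, 22 were kept. Of these, 13 were 1.5-fold or more higher, 9 of them 2-fold or more, and none was 1.5-fold lower, with a median of 0.78 against -0.02 over all genes.

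Fibrillar collagens, the tensile fibres of the matrix, were higher, and the minor chain of cartilage-type fibres differed most. Col11a1 was at 0.253 and 0.890 (1.81, technical SE 0.08), against 0.262 in normal and 0.347 in overloaded uninjured soleus, so that regenerated overloaded soleus stood alone among the 4 arrays. Col1a1 was at 36.9 and 77.2 (1.07), Col1a2 at 82.5 and 143 (0.79), Col3a1 at 47.7 and 85.1 (0.83), and Col14a1, a collagen on the surface of fibrils, at 8.73 and 16.0 (0.87). These 4 genes were lower in normal soleus than on any other array. Of 15 kept collagens of 16 on the array, 5 were 1.5-fold or more higher and none lower, with a median of 0.47. Enzymes that fold and cross-link collagen differed less. Fkbp10, a collagen chaperone, was at 0.168 and 0.309 (0.88), Loxl2, a lysyl oxidase, at 1.01 and 1.64 (0.70), Pcolce, an enhancer of procollagen cleavage, at 32.1 and 50.6 (0.66) and Loxl1 at 0.839 and 1.27 (0.60). Loxl4 was the lowest of the 23 kept at -0.57, and the median of the 23 was 0.33. Among 12 kept genes of the elastic fibre, Fbn2, fibrillin 2, stood apart at 0.204 and 0.705 (1.79), and the median was 0.41.

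Among proteases that remodel the matrix and their inhibitors, members of both kinds were higher. Mmp14, a membrane-bound collagenase, was at 3.31 and 7.73 (1.22, technical SE 0.02, 10 spots on each array), and Timp1, an inhibitor of such proteases, at 3.14 and 7.07 (1.17). Fap, a membrane protease of activated fibroblasts, was at 0.666 and 1.45 (1.12). Mmp16 was 2.01-fold higher at levels close to background, 0.0393 and 0.0791, and 0.29 with normexp background correction. Htra1 (0.81), Adamts15 (0.76) and Adam19 (0.68 on its brightest probe, -0.03 on the other) passed 1.5-fold. Timp4, the inhibitor most abundant in muscle and heart, ran the other way, at 0.641 and 0.369 (-0.80). Of 25 kept of 33 on the array, 9 were 1.5-fold or more higher and 1 lower, and 7 lay below 0, with a median of 0.35 (0.17 with normexp).

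Signalling proteins of the matrix also differed. Sfrp4, Sfrp2 and Dkk3, secreted proteins that bind or modulate Wnt signals, were 2.32-fold, 2.11-fold and 2.14-fold higher, the last at 1.98 and 4.24 against 1.19 and 2.14 in uninjured soleus. Fzd1, a Wnt receptor, was at 0.347 and 0.647 (0.90). Rspo3, which enhances Wnt signals, was at 1.24 and 0.733 (-0.75), and Wnt16, a ligand outside the list counted here, at 0.577 and 0.272 (-1.08). The Wnt list had 16 kept genes of 25 on the array, with 5 higher and 1 lower at 1.5-fold; their median of 0.34 became -0.02 with normexp. CCN and other matricellular proteins had 5 of 8 kept members 1.5-fold or more higher and a median of 0.63: Ccn4 at 0.96, Ptn, pleiotrophin, at 0.95, Ccn5 at 0.93 and Ccn3 at 0.68. Ccn2, connective tissue growth factor, lay at the low end with 4.69 and 3.96 (-0.25). In the TGF-beta list, Ltbp2, which binds latent TGF-beta complexes, was the highest of 19 kept members at 0.87 and Acvr2b, the activin receptor that binds myostatin, the lowest at -0.54.

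Fibroblast genes did not all share this direction. Of 19 kept genes of the fibroblast list, 5 were 1.5-fold or more higher and 2 lower, with a median of 0.30. The summed scaled signal of the fibroblast markers was 39.8 in regenerated and 81.8 in regenerated overloaded soleus, with 4 of 4 measured markers above background on both arrays, against 16.2 in normal and 54.6 in overloaded uninjured soleus. Most of that sum is Col1a1, which with Lum is also among the matrix genes. Pdgfra, a growth factor receptor that defines these cells, was at 2.17 and 2.43 (0.16). Thy1, a surface protein of fibroblasts, was at 0.0446 and 0.148 (1.73, technical SE 0.23; 0.72 with normexp), and Lrrc15, a membrane protein known from activated fibroblasts, at 0.0357 and 0.173 (2.28; 1.01 with normexp). Procr, a receptor of protein C, was lower, at 0.384 and 0.190 (-1.02). In RNA of whole muscle, more cells of a type and more RNA per cell cannot be told apart, and the part of cell numbers in the matrix differences was not tested.

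Tendon genes were higher in regenerated overloaded soleus, and several of them were not higher with overload of uninjured muscle. Tnmd, tenomodulin, a membrane protein of tendon cells, was at 0.346 and 1.06 (1.61, technical SE 0.07). Fmod, fibromodulin, which shapes collagen fibrils in tendon, was at 8.38 and 19.0 (1.18), against 9.65 in normal and 7.62 in overloaded uninjured soleus. Comp, cartilage oligomeric matrix protein, was at 1.01 and 2.35 (1.21), against 0.902 and 0.722. For both genes the 3 other arrays lay close together and regenerated overloaded soleus above them. Kera, keratocan, was at 0.0978 and 0.269 (1.46; 0.87 with normexp); here the regenerated array was low and regenerated overloaded soleus near the normal level of 0.293. Chad, chondroadherin, was at 0.631 and 1.05 (0.73), and Scx, scleraxis, the transcription factor of tendon cells, at 10.4 and 13.0 (0.32). Col9a1 was the lowest member at -0.03. Of 13 kept tendon and cartilage genes of 14 on the array, 9 were 1.5-fold or more higher, 6 of them 2-fold or more and none lower, with a median of 0.90. Of the 6, Comp, Kera and Fmod are also counted with the small proteoglycans, Col11a1 with the collagens and Egr1 with the immediate early genes. The 5 measured tendon markers (Tnmd, Scx, Comp, Kera and Fmod) summed to 20.3 and 35.7, against 24.3 and 20.4 in uninjured soleus. Most of that sum is Scx and Fmod, and most of its rise is Fmod. In normal and overloaded uninjured soleus Scx was at 12.95 and 11.05, and Tnmd at 0.492 and 0.716. How much tendon tissue each pool held was not tested.

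**Figure D2:**
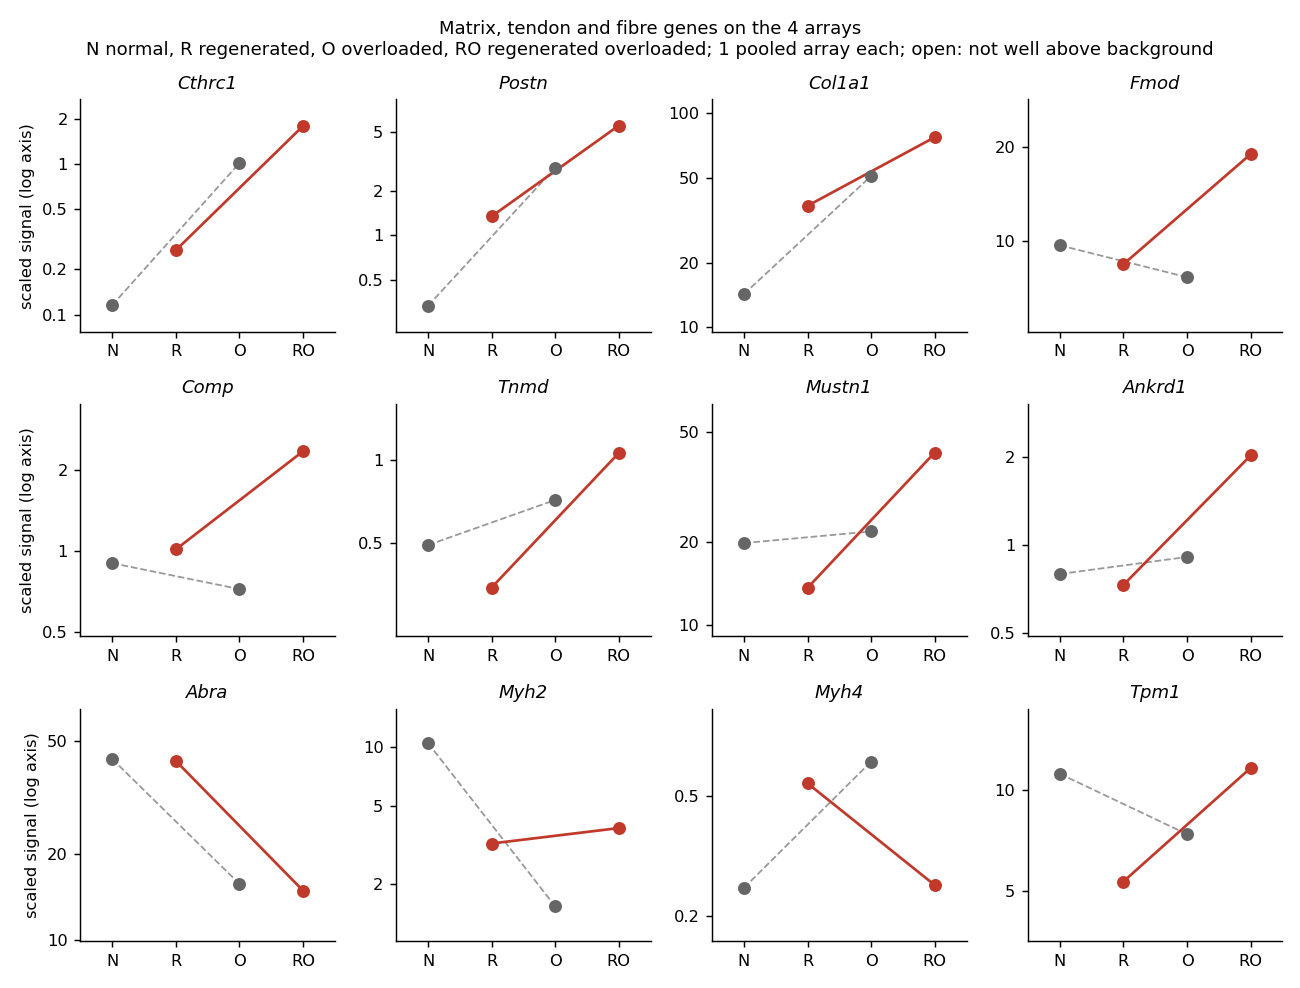
Scaled signal of 12 genes on each of the 4 arrays (log axis, 1 pooled array per group; lines join the arrays with and without overload, red for regenerated and dashed grey for uninjured soleus). Fmod and Comp are high in regenerated overloaded soleus alone, Abra is low on both overloaded arrays, and Myh2 is low in overloaded uninjured soleus while it differs little between the 2 regenerated arrays.

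Among fibre genes that respond to stretch or load, large differences ran both ways. Mustn1, a small nuclear protein of developing and regenerating muscle, was at 13.6 and 42.2, 3.10-fold higher (log2 1.63, technical SE 0.02, 10 spots on each array), against 19.8 and 21.8 in uninjured soleus. Ankrd1, a titin-associated protein induced by stretch, was at 0.729 and 2.02 (1.47), against 0.794 and 0.909. For both, regenerated overloaded soleus was the highest of the 4 arrays. Abra was at 42.5 and 14.9, 2.85-fold lower (log2 -1.51, technical SE 0.02), and Asb5, an ankyrin repeat protein of muscle outside the list, at 18.0 and 8.07 (-1.16). These lower levels resembled those of overloaded uninjured soleus, 15.8 and 8.62. Csrp3, a mechanosensing LIM protein of the Z-disc, was at 73.5 and 63.1 (-0.22), Ankrd2 at 99.3 and 77.1 (-0.36) and Nrap at 105 and 80.8 (-0.38). The list had 2 of 9 kept members 2-fold or more higher, 1 lower, and a median of -0.20.

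Of 4 kept genes of the developing sarcomere, 2 were 2-fold or more higher and 2 lay slightly below 0, and the slow contractile genes differed little. Myh3, embryonic myosin heavy chain, was at 14.8 and 36.9 (1.32), and Tnnt2, cardiac and embryonic troponin T, at 7.29 and 19.5 (1.42). Both were also higher in overloaded than in normal uninjured soleus (31.0 against 10.1 and 12.2 against 5.26). Myh8, perinatal myosin, was at 105 and 90.2 (-0.22), and Actc1, cardiac actin, at 28.0 and 25.1 (-0.16). All 10 kept slow contractile genes had slightly lower signals, from -0.02 for Tnnt1 to -0.54 for Actn2, with a median of -0.18. Myh7, the slow myosin heavy chain, was at 338 and 285 (-0.25). Fast isoforms had no common direction. Myl11, the fast regulatory light chain, was at 65.2 and 135 (1.05), and Tpm1, alpha-tropomyosin, at 5.35 and 11.6 on its brightest probe (1.12; 0.44 on its other probe). Myoz1, a Z-disc protein of fast fibres, was at 10.6 and 6.34 (-0.74), and Myh4, myosin 2B, at 0.551 and 0.253 (-1.12; -0.86 with normexp). Myh2 and Myh1, myosins 2A and 2X, differed by 0.26 and 0.21. Myosin heavy chain genes are near-identical over long stretches, and how far each probe is specific to 1 of them was not tested. The 12 kept fast genes had a median of -0.11.

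Calcium, ion and water transport genes of the fibre were mostly lower. Atp2a1, the fast calcium pump of the sarcoplasmic reticulum, was at 71.0 and 42.3 (-0.75, technical SE 0.05), the lowest of 14 kept calcium handling genes. Atp2a2, the slow pump, was at 194 and 152 (-0.35), and Sln, sarcolipin, an inhibitor of these pumps, at 55.3 and 65.9 (0.25). Atp1b1, a subunit of the sodium pump, was at 39.2 and 26.8 (-0.55), and 10 of 14 kept sodium, potassium and chloride transport genes lay below 0 with a median of -0.33 (-0.39 to -0.28 over the scalings and background corrections). None of the 14 passed 1.5-fold. Aqp4, the water channel of the fast fibre membrane, was at 0.936 and 0.343 (-1.45, technical SE 0.07), against 0.782 and 0.443 in uninjured soleus; its other probe differed by -0.44, and the mean of both was -0.94.

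Genes of energy metabolism were lower by small amounts in nearly every member measured. All 31 kept genes of the TCA cycle and mitochondrial carriers lay below 0, as did all 33 kept genes of fatty acid uptake and oxidation and 48 of 50 of oxidative phosphorylation. Their medians were -0.31, -0.34 and -0.24 against -0.02 over all genes, and 2, 1 and 0 members were 1.5-fold lower. Oxidative phosphorylation ranged only from -0.50 for Ndufa10, a subunit of complex I, to 0.09 for Cox6a1. The steepest differences in the other lists were Slc25a30 (1.03 and 0.566, -0.87) and Slc25a25 (3.98 and 2.44, -0.71), carriers of the inner membrane. Slc27a1, a fatty acid transporter, was at 2.12 and 1.38 (-0.62), and Lpl, lipoprotein lipase, at 8.88 and 6.14 (-0.53). Glycolysis and glycogen genes had a median of -0.31, with 30 of 34 below 0 and 3 past 1.5-fold: Fbp2 (-0.87), a fructose bisphosphatase of muscle, Slc16a7 (-0.82), a monocarboxylate transporter, and Phkg1 (-0.78), a subunit of glycogen phosphorylase kinase. Ldha, lactate dehydrogenase A, was the highest at 0.12. Less the median of all genes, the medians of these 4 lists were -0.16 or lower under each scaling and background correction tried. The summed muscle fibre markers were 2156 and 1967 in the same comparison, and the part of this in the metabolic differences was not tested.

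Regulators of mitochondria and lipid stores showed larger differences. Ppargc1a, PGC-1 alpha, the coactivator that drives mitochondrial biogenesis, was at 0.121 and 0.0557 (-1.12, technical SE 0.22), and normal and overloaded uninjured soleus were at 0.166 and 0.0684. It stood lower on both overloaded arrays, at levels close to background, and was -0.61 with normexp. Its relative Ppargc1b was at 0.684 and 0.450 (-0.61). Ppara, a nuclear receptor for fatty acids, was at 0.166 and 0.115 (-0.53). Dgat2, the last enzyme of triglyceride synthesis, was at 2.56 and 1.22 (-1.07), Gpd1, glycerol-3-phosphate dehydrogenase, at 1.66 and 0.915 (-0.86), and Pnpla2, the triglyceride lipase ATGL, at 2.25 and 1.45 (-0.63). Cidec, a lipid droplet protein, was at 0.122 and 0.0613 (-0.99). Of 20 kept adipocyte and lipogenic genes, 4 were 1.5-fold or more lower and none higher, with a median of -0.26. Adipoq, the fat cell hormone adiponectin, was at 2.38 and 1.63, and the 4 measured adipocyte markers summed to 29.9 and 27.7. Most of that sum is Cfd, which differed little (20.5 and 20.1). Adipoq, Cidec and Fabp4 (6.93 and 5.95) were each lower. G0s2, an inhibitor of Pnpla2 outside the list, ran the other way among the brightest genes, at 32.0 and 62.2 (0.96), against 65.7 in normal soleus.

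**Figure D3:**
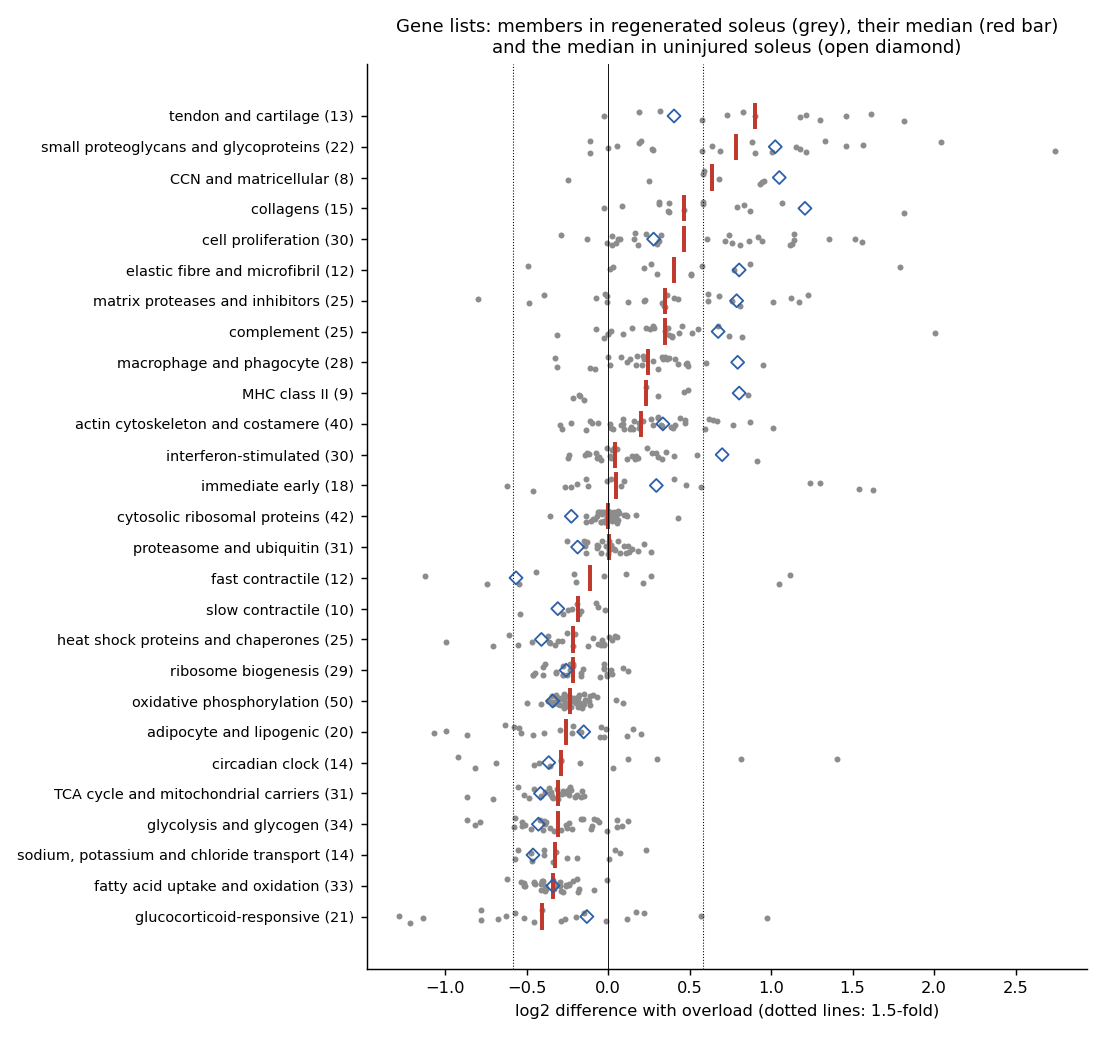
Log2 overload difference of the kept members of 27 gene lists in regenerated soleus (grey points, number in brackets), their median (red bar) and the median in uninjured soleus for the members measured on all 4 arrays (open diamond); dotted lines mark 1.5-fold. Tendon genes have the highest median in regenerated soleus (0.90), metabolic lists lie a little below 0 with little spread, and the interferon list has a median of 0.04 in regenerated and 0.70 in uninjured soleus.

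Genes induced by glucocorticoids were lower as a group. Fkbp5, a chaperone of the glucocorticoid receptor and a sensitive target of it, was at 1.75 and 0.721 (-1.28, technical SE 0.06), against 1.26 and 0.721 in uninjured soleus, so that both overloaded arrays had the same level. Zbtb16, a zinc finger repressor, was at 0.132 and 0.0600 (-1.13; -0.63 with normexp), and Arrdc2 at 0.100 and 0.0432 (-1.21; -0.52 with normexp). Klf9 and Klf15, transcription factors of the hormone's response, were at 4.02 and 2.34 (-0.78) and at 2.60 and 1.63 (-0.67). Angptl4, an inhibitor of lipoprotein lipase, was at 4.06 and 2.36 (-0.78), and Ddit4, a brake on mTOR, at 2.42 and 1.57 (-0.62). Metallothioneins, which answer to metals as well, went the other way: Mt1 at 3.63 and 7.14 (0.98) and Mt3 at 0.664 and 3.33 (2.32). Mt3 belongs to the redox and metallothionein list and not to the glucocorticoid one. Of 21 kept genes of 22 on the array, 7 were 1.5-fold or more lower, 3 of them 2-fold or more, and 1 was higher, with a median of -0.41. Nr3c1, the receptor itself, differed by -0.01. Trim63, the muscle ubiquitin ligase MuRF1, was at 1.69 and 1.06 (-0.67), while Fbxo32, atrogin-1, was at 0.548 and 0.555.

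Few clock genes passed 1.5-fold, and those that did differed in opposite directions by phase. Of 14 kept clock genes of 15 on the array, 2 were 1.5-fold or more higher and 3 lower. Their median was -0.29, with 9 below 0 and 5 above it. Bmal1, the activator of the circadian loop, was at 0.273 and 0.721 (1.40, technical SE 0.08), and Npas2, its partner, at 0.198 and 0.348 on its brightest probe (0.82; -0.05 on the other). Genes that this pair activates were lower: Per2 at 0.352 and 0.186 (-0.92), Dbp at 35.5 and 20.1 (-0.82) and Nr1d1, the repressor REV-ERB alpha, at 0.710 and 0.440 (-0.69). Overloaded uninjured soleus showed the same order, with Bmal1 at 0.785 against 0.375, Per2 at 0.184 against 0.346 and Dbp at 21.9 against 36. The labels give no time of day at which muscles were taken, and what it adds was not tested. The Bmal1 promoter is shown because REV-ERB and ROR receptors, which act on this gene, bind sites with the core AGGTCA. The 300 bases run from 250 before to 50 after the RefSeq start in assembly GRCr8, and capitals mark that core, searched on both strands.

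Bmal1 promoter, chr1:176766078-176766377, plus strand: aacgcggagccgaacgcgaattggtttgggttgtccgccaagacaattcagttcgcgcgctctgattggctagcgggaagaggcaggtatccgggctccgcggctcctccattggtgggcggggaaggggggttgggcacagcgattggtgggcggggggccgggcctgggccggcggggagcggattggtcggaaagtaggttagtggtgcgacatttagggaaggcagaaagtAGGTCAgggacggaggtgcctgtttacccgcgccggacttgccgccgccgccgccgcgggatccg

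The core begins at position -15, counted from the start, and occurs in 15.7% of the 27457 RefSeq promoters of this length. It was not found in the same window of Npas2, Per2, Dbp or Nr1d1. The E-box CACGTG was found in none of the 5, against 6.65% of all promoters. Over the 13 kept clock genes with a promoter, the core was found in 2 (15.4%) and the E-box in 2 (15.4%).

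Immediate early genes, which answer within minutes to stimuli such as growth factors or stretch, had 4 members 2-fold or more higher among 18 kept of 22 on the array. Fos was at 0.279 and 0.863 (1.63, technical SE 0.08), Egr1 at 0.451 and 1.11 (1.30) and Nr4a2 at 0.174 and 0.410 (1.24; 0.84 with normexp). Egr2 was at 0.0588 and 0.171 over 10 spots on each array (1.54; 0.77 with normexp). Levels in overloaded uninjured soleus were as high or higher for Fos (1.1) and Nr4a2 (0.699). Jun was at 3.36 and 2.94, Atf3 at 5.55 and 4.62, Myc at 0.332 and 0.241 (-0.46), and Ier3, the lowest, at 4.03 and 2.62 (-0.62). The list therefore had no common direction, with a median of 0.05 that lay between -0.01 and 0.09 over the scalings and background corrections. The Egr1 and Egr2 promoters are shown for their CArG boxes, the sites of serum response factor, in capitals.

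Egr1 promoter, chr18:26736828-26737127, plus strand: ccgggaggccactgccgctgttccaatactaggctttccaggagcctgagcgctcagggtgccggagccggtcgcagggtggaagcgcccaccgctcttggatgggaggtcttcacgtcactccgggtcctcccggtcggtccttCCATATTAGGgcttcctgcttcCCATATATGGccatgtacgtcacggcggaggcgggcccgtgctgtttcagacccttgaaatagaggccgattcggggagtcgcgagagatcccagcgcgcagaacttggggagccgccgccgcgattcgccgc
Egr2 promoter, chr20:21054392-21054691, minus strand: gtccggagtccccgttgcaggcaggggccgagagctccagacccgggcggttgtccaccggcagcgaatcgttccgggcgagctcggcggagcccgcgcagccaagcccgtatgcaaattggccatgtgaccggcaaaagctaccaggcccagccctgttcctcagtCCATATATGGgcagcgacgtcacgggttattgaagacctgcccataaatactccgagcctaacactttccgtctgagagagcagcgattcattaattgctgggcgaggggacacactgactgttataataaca

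The boxes begin at positions -105 and -83 from the start of Egr1 and -83 from that of Egr2. A CArG box, searched on both strands, occurs in 1.64% of all promoters, and was not found in that of Nr4a2. Over the 12 kept immediate early genes with a promoter it was found in 3. No promoter was listed for Fos.

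Genes of cell division were higher from low levels. Cdk1, the kinase that starts mitosis, was at 0.218 and 0.474 over 10 spots on each array (1.12, technical SE 0.04), and Mki67, the proliferation marker Ki-67, at 0.239 and 0.40 (0.74). Rrm2, which supplies nucleotides for DNA synthesis, was at 0.178 and 0.455 (1.35), and Cdca3, a mitotic entry factor, at 0.0806 and 0.231 (1.52). Both overloaded arrays were high for these 4 genes and both unloaded arrays low. Ccna2, cyclin A2 (1.56), Kif22, a spindle motor (1.14), Nusap1, a spindle protein (1.14), and Birc5, survivin (1.13), were the others past 2-fold. Of 30 kept genes of 43 on the array, 15 were 1.5-fold or more higher and none lower, with a median of 0.47 (0.22 with normexp, where none of the 7 genes past 2-fold remained past it). Genes of the G1 phase and of DNA replication were mixed. Ccne1, cyclin E1, was at 0.81 and Gmnn, geminin, a regulator of replication licensing, at 0.86, while Pcna, the sliding clamp of DNA polymerase, was at 0.05, Ccnd1, cyclin D1, at -0.01 and Mcm2, of the replicative helicase, at 0.02. Cdc20, at 0.790 and 0.647, was the lowest (-0.29). Of 17 kept cyclin-dependent kinase inhibitors and p53 targets, 12 lay above 0 and none was 1.5-fold higher, with a median of 0.16. They ranged from Gadd45g, at 2.19 and 1.21 (-0.86), to Btg2 (0.57).

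Promoters of many mitotic genes hold a CHR element, TTTGAA or TTCGAA, and a CCAAT box, through which repressor and activator complexes act in the cell cycle. Those of Cdk1, Birc5 and Nusap1 are shown with both in capitals, on either strand.

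Cdk1 promoter, chr20:19265043-19265342, plus strand: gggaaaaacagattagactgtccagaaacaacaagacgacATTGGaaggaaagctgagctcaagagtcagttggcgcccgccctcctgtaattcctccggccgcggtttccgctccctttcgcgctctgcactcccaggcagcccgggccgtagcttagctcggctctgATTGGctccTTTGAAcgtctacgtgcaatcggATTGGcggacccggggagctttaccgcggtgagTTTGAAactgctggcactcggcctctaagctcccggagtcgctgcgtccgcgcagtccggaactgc
Birc5 promoter, chr10:103571896-103572195, plus strand: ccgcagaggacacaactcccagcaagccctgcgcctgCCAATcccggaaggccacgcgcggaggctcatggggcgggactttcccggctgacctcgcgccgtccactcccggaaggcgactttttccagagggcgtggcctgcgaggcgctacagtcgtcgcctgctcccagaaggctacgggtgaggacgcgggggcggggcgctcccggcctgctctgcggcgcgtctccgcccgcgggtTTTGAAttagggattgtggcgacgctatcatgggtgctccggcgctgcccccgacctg
Nusap1 promoter, chr3:127057045-127057344, plus strand: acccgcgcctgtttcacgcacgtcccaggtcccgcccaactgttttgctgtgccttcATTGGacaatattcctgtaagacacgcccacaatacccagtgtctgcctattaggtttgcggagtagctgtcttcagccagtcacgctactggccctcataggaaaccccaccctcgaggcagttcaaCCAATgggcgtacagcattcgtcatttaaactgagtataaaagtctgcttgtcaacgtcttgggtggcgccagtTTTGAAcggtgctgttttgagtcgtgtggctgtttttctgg

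The CHR elements begin at positions -72 and -16 from the start in Cdk1, -8 in Birc5 and 9 in Nusap1. Of the 15 division genes at 1.5-fold or more, 13 had a promoter in the table; 8 of these (61.5%) held a CHR element and 12 (92.3%) a CCAAT box, against 19.5% and 37.7% of all 27457 promoters. Among the 26 kept list members with a promoter 13 held the former and 20 (76.9%) the latter. These are matches of letters in a window, and binding was not measured.

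**Figure D4:**
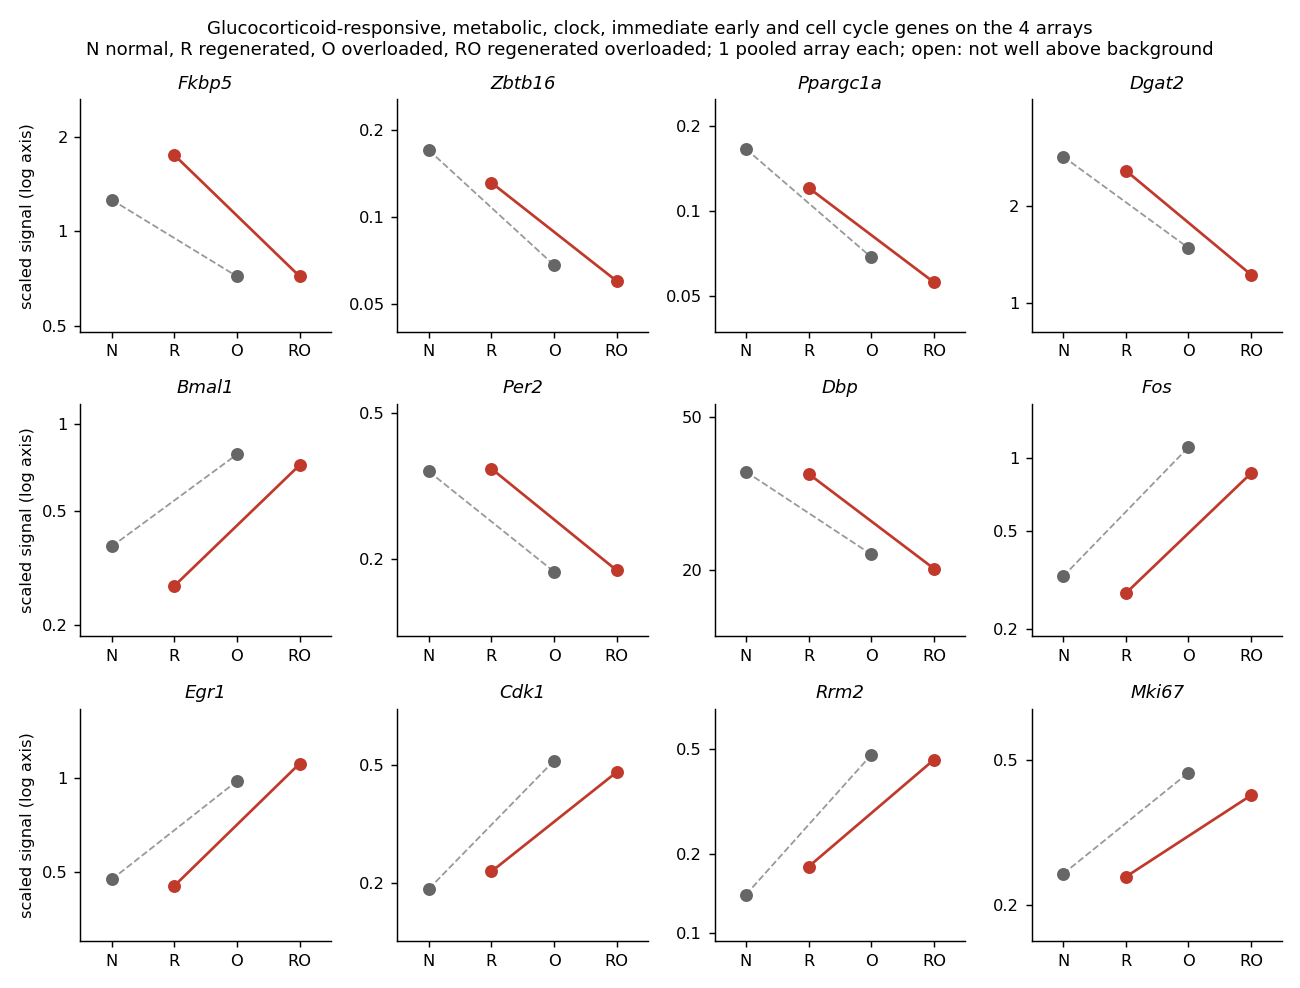
Scaled signal of 12 regulatory, metabolic and cell cycle genes on each of the 4 arrays (log axis, 1 pooled array per group; red lines join the regenerated and dashed grey lines the uninjured arrays). Fkbp5, Zbtb16, Ppargc1a, Dgat2, Per2 and Dbp are lower and Bmal1, Fos, Egr1, Cdk1, Rrm2 and Mki67 higher on both overloaded arrays than on their unloaded counterparts.

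Growth factor signalling genes differed in a few members. Igf2, insulin-like growth factor 2, was at 10.4 and 16.9 (0.69), and Igf1 at 26.1 and 30.7 (0.24). H19, the non-coding RNA next to Igf2, was at 123 and 204 (0.74). Socs2, a feedback inhibitor of growth hormone signalling, was at 0.129 and 0.0618 (-1.06, technical SE 0.10; -0.62 with normexp), and Irs2, an adaptor of the insulin receptor, at 0.717 and 0.506 (-0.50). Id2, a target of BMP signals, was at 0.368 and 0.653 (0.83), whereas Id1 was at 1.09 and 0.838 (-0.38). Vegfb, a growth factor of the VEGF family, was at 0.261 and 0.995, against 0.412 and 1.08 in uninjured soleus (1.93, technical SE 0.08). Pgf, placental growth factor, was at 1.33 and 0.716 (-0.90). Vegfa was at 10.1 and 8.2 (-0.30), and the 28 kept endothelial and angiogenic genes had a median of -0.00, from -0.07 to 0.04 over the scalings and background corrections. None of the 15 kept mTOR and Akt genes was 1.5-fold higher, and their median was -0.12.

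Immune genes showed mostly small differences apart from a few chemokines, C1qtnf3 and B cell genes, and macrophage and complement genes lay mostly above 0. Ccl2, the monocyte attractant MCP-1, was at 0.316 and 0.766 (1.28, technical SE 0.03), and its relative Ccl7 at 0.107 and 0.206 (0.94). Cxcl13, the B cell attractant, was at 0.0461 and 0.168 (1.86; 0.83 with normexp). Cxcl9, a target of interferon gamma, was lower, at 0.738 and 0.490 (-0.59). Of 37 kept chemokine and cytokine genes, 7 were 1.5-fold or more higher and 1 lower, and the median was 0.12. Macrophage genes had a median of 0.25, with 24 of 28 above 0 and 2 past 1.5-fold, Arg1 (arginase 1, 0.95) and Fcgr1a (an Fc receptor, 0.60); the 5 macrophage markers summed to 13.9 and 16.6. Complement genes, listed together with C1q-like C1qtnf genes, had a median of 0.35, with 21 of 25 above 0 and 4 past 1.5-fold, none of them lower. C1qtnf3, a secreted C1q-like protein also known from cartilage, was the highest of 25 at 0.249 and 0.999, 4.01-fold higher, and C1s, a protease of the classical pathway, was at 3.78 and 6.03 (0.67). RT1-Da, a class II histocompatibility chain, was at 2.67 and 4.84 (0.86), but the 9 kept class II genes ranged down to -0.21. Interferon-stimulated genes had a median of 0.04 (-0.02 to 0.09 over the scalings and background corrections), with Cxcl10 the highest at 0.92 and the only member of 30 past 1.5-fold.

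B cell genes ran against each other. Igll1 was at 0.140 and 0.0390 (-1.85, technical SE 0.27) and Pou2af1, a coactivator of antibody genes, at 0.123 and 0.0441 (-1.48, technical SE 0.27). With normexp they were -0.95 and -0.69. Neither was above background in normal soleus, and overloaded uninjured soleus was at 0.0326 and 0.0446, so regenerated soleus without overload was the high array for both. Mzb1, an endoplasmic reticulum protein of plasma cells, was at 0.0660 and 0.0348 (-0.92). Fcrl2, an Fc receptor-like protein, was at 0.144 and 0.679 (2.24, technical SE 0.10), against 0.155 and 0.531 in uninjured soleus, and was high on both overloaded arrays. Only 8 of 19 list members on the array were kept, and the defining marker Cd79b was below background on all 4 arrays.

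Few listed nerve and synapse genes passed 1.5-fold, and the largest difference given here is that of a gene outside the lists. Uchl1, a ubiquitin hydrolase abundant in neurons and in none of the lists, was at 0.613 and 2.30 (1.91, technical SE 0.06), against 0.589 and 1.20 in uninjured soleus. Ncam1, an adhesion molecule of denervated and regenerating fibres and of satellite cells, was at 0.134 and 0.259 (0.95), and Chrng, the fetal subunit of the acetylcholine receptor, at 1.23 and 2.03 (0.72). Chrne, the adult subunit, was at 0.243 and 0.180 (-0.43), and Ache, acetylcholinesterase, at 0.186 and 0.0988 (-0.92). The fetal and adult receptor subunits thus stood on opposite sides of 0. Chrna1, Chrnd and Runx1, often raised by denervation, differed by 0.10, 0.01 and 0.11. The 17 kept genes of the neuromuscular junction and denervation list had a median of 0.10. In that list 2 members were 1.5-fold or more higher, 1 was lower and none passed 2-fold. Mbp, myelin basic protein, was lower, at 1.70 and 1.16 (-0.55), with a summed Schwann cell marker signal of 2.03 and 1.41 against 2.35 and 2.24 in uninjured soleus. Most of that sum is Mbp. The 10 kept Schwann cell and nerve genes had no common direction, with 5 above 0, 5 below 0 and a median of 0.09. Of these, 2 were 1.5-fold or more higher, with Egr2 the highest at 1.54, and none was 1.5-fold lower. Satellite cell and myogenic regulators had a median of -0.00 (-0.07 to 0.04 over the scalings and background corrections) with Ncam1 as the only member of 15 past 1.5-fold.

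Ribosomal protein and proteasome genes centred on 0, and ribosome biogenesis and chaperone genes were mostly lower by small amounts. The 42 kept cytosolic ribosomal proteins had a median of -0.00 (-0.06 to 0.06 over the scalings and background corrections) and ranged from -0.35 for Rpl3l, the muscle-specific form of Rpl3, to 0.43 for Rpl3 itself. The pair differed in opposite directions: Rpl3 was at 27.0 and 36.4, against 20.6 and 30.9 in uninjured soleus, and Rpl3l at 30.0 and 23.5, against 36.8 and 25.4. Ribosome biogenesis genes had a median of -0.22, with 25 of 29 below 0, and the 31 kept proteasome and ubiquitin genes ranged from -0.25 to 0.27 around a median of 0.01. In the endoplasmic reticulum list, Tmed3, a cargo receptor, was the highest at 0.86 and Herpud1, of the stress response, the lowest at -0.40. Heat shock proteins and chaperones had 21 of 25 members below 0 and a median of -0.21. Hspa2 was at 1.07 and 0.537 (-0.996), Dnajb5 at 1.69 and 1.04 (-0.70) and Bag3, a cochaperone of filamin turnover, at 19.0 and 12.5 (-0.61). Flnc, filamin C itself, was at 9.95 and 6.26 (-0.67).

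Genes of the actin cytoskeleton and costamere were mostly a little higher. S100a4, a calcium-binding protein of motile cells, was at 23.8 and 48.0 (1.01, technical SE 0.05), and Nes, nestin, at 1.14 and 2.09 (0.87). Tmsb10, a thymosin that binds actin, was at 13.3 and 21.1 (0.67). Of 40 kept members, 33 lay above 0 and 7 passed 1.5-fold, none of them lower, with a median of 0.20. Other genes among the largest differences belong to no such group. Rab15, a GTPase of endosomes, was at 0.165 and 0.754 (2.19), Crabp2, a retinoic acid carrier, at 0.875 and 3.29 (1.91), and Spon1, F-spondin, at 0.121 and 0.440 (1.86; 0.90 on its other probe). Klk1, tissue kallikrein, was at 0.479 and 1.55 (1.69), and its paralog Klk1c2 was 3.16-fold higher, although the 2 sequences are close enough that probes may share signal. Enc1 was at 1.29 and 0.607 (-1.09), Anxa10, an annexin, at 1.34 and 0.661 (-1.02), and Trim16 at 1.82 and 0.807 on its brightest probe (-1.18), while its other probe differed by 0.01.

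The overload difference in regenerated soleus was set beside that in uninjured soleus (overloaded minus normal), with which it shares no array, in the 8956 genes measured on all 4. The 2 differences correlated across genes with a Pearson r of 0.71 and a Spearman rank correlation of 0.70. Genes are not independent replicates, and slide row and age differ in the same way in both. The sample titles end in R for the normal and overloaded arrays and in L for the 2 regenerated arrays, and are not expanded. Whether arrays of like age hold muscles of the same rats was not tested. The difference was smaller in regenerated soleus. The uninjured difference rests on the normal array, which stood apart, with 60.4% of probe spots well above background against 68.1% to 70.6% on the other 3 arrays and a median local background of 44 intensity units against 32 to 33. The part of this in the comparison was not tested. Of these genes 80.0% lay within 1.25-fold there, against 65.0% in uninjured soleus. At 2-fold, 88 genes (0.983%) were higher in regenerated and 230 (2.57%) in uninjured soleus, and 57 were higher in both, 64.8% of the former and 24.8% of the latter. Lower genes numbered 18 (0.201%) and 39 (0.435%), with 6 in both, 33.3% and 15.4%. At 1.5-fold, 309 genes (3.45%) were higher in regenerated and 811 (9.06%) in uninjured soleus, with 232 in both, and 148 (1.65%) and 266 (2.97%) were lower, with 81 in both.

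The 2 differences themselves differed by 2-fold or more in 72 genes (0.804%), 34 (0.38%) with a higher value in regenerated and 38 (0.424%) with a higher value in uninjured soleus. The former include fast sarcomere genes. Myh2 was at 3.22 and 3.86 in regenerated soleus without and with overload, and at 10.5 and 1.53 in uninjured soleus, so that its differences were 0.26 and -2.78. Tnni2, fast troponin I, was at 28.3 and 20.8 against 54.0 and 10.9, and Myh1 at 2.70 and 3.12 against 2.09 and 0.635. Overloaded uninjured soleus was the lowest array for each. The 12 fast contractile genes had a median of -0.11 in regenerated and -0.56 in uninjured soleus. Not all followed: Myh4 was at 0.248 and 0.651 in uninjured soleus (1.39), opposite to its lower value in overloaded regenerated muscle, and Actn3, fast alpha-actinin, at 0.808 and 3.22, against 1.47 and 1.28. Tendon genes also had larger values in regenerated soleus in 9 of 11 members, with medians of 1.18 and 0.40 over those measured on all arrays, and Chad (0.73 and -0.82), Comp (1.21 and -0.32) and Fmod (1.18 and -0.34) had opposite signs in the 2 kinds of muscle. By smaller amounts, 41 of 42 ribosomal proteins (median 0.22 of the first difference less the second), 48 of 50 genes of oxidative phosphorylation (0.13), 30 of 31 of the proteasome (0.20) and 24 of 26 of translation (0.19) lay on the same side. Over all 8956 genes the median of this value was 0.05 and its quartiles were -0.12 and 0.18, so more genes lay on that side than on the other. The oxidative phosphorylation median lay inside these quartiles and the other medians just above them. Under other scalings these list values were not computed.

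**Figure D5:**
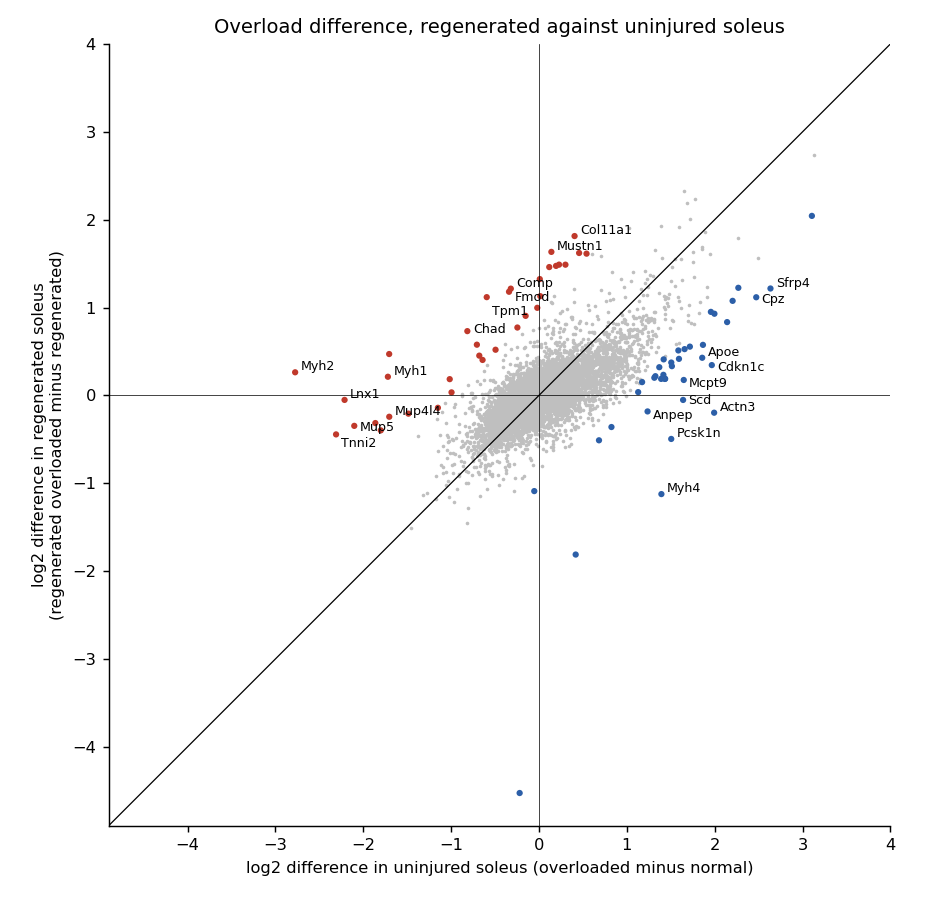
Log2 overload difference of 8956 genes in regenerated soleus (vertical axis) against uninjured soleus (horizontal axis), 1 pooled array per group; the diagonal marks equal differences, and coloured points differ from it by 2-fold or more (red 34 genes, blue 38 genes). Myh2, Tnni2 and Myh1 lie far to the left, Col11a1 and Mustn1 above the diagonal, and Myh4 and Actn3 to the right of it; the lowest point is a transcript with no gene symbol.

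Matrix, macrophage and interferon genes had smaller overload differences in regenerated soleus. Collagens had medians of 0.58 in regenerated and 1.21 in uninjured soleus over the 13 measured on all arrays, with 5 and 11 members 1.5-fold or more higher. Col3a1 shows the levels behind this: 15.5 in normal, 47.7 in regenerated, 68.2 in overloaded and 85.1 in regenerated overloaded soleus. Regenerated soleus started above normal, and regenerated overloaded soleus was the highest of the 4. Macrophage genes had medians of 0.27 and 0.79, class II histocompatibility genes 0.27 and 0.80 and interferon-stimulated genes 0.04 and 0.70. Isg15, an interferon-induced ubiquitin-like protein, was at 0.326, 0.428, 0.931 and 0.539 in the same order, so that overloaded uninjured soleus was the high array. Apoe, apolipoprotein E, was at 11.5, 50.4, 41.7 and 67.8, and Cdkn1c, the cell cycle inhibitor p57, at 1.03, 3.12, 4.04 and 3.96. For both, normal soleus was the low array. Glucocorticoid-responsive genes had the larger negative median in regenerated soleus, -0.41 against -0.13, while division genes (0.31 and 0.28), clock genes (-0.29 and -0.36) and fatty acid oxidation genes (-0.36 and -0.34) had like medians in both. With 1 array per group, none of these differences between the muscles was tested.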

How the data were processed

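RNA of 6 soleus muscles was mixed for each of 4 groups and hybridised to 1 one-colour Agilent array per group, per the labels' protocols, so replicates are only spots on the same array. The authors deposited scanner files of spot intensity, background-subtracted and detrended by Feature Extraction 11.5.1.1 with protocol GE1_1105_Oct12 and the grid build rn4, per the file headers, whereas Feature Extraction 10.10.1.1 is given per the submitters' processing notes. The files' flags, deposited by the authors with each spot, gave outlier, saturated and well above background spots. The authors' deposited series table holds the same processed intensity times a constant per array; what sets the constant is not stated in the sources used here.

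From these files, control and outlier spots were left out (450 and 451 outlier spots on the regenerated and regenerated overloaded arrays), each intensity was divided by the 75th percentile of its array, log2 values were averaged over the spots of a probe, and the brightest probe was taken for a gene. Probes needed 2 or more spots and a flag well above background on both arrays. Of 30367 probes, 13138 had fewer spots and 5874 were above background on neither array; 372 were above it without overload alone and 178 with overload alone. No probe spot was saturated (0 spots). A technical SE pooled the SD between spots over probes of like signal in 20 bins. With 1 array per group no test was run, and precision is limited by having so few arrays. Gene names came from the RefSeq table of GRCr8, which named 18635 probes, and promoters were those of RefSeq. Calculations used Python 3.11.15, pandas 2.3.3, numpy 2.4.6, R 4.3.3 and limma 3.58.1 (normexp with offset 50 on the median spot and background intensity). Quantile normalization was done in Python, and the scripts were tested on simulated data.

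The comparison, the gene lists (63 lists with 1561 symbols, 1175 of them kept) and the markers were chosen with earlier results of these data known. Named genes are the 20 largest differences each way, the 2-fold or otherwise the largest and brightest members of each list with its lowest and highest, the 10 largest differences among the 300 brightest genes, and the 10 largest differences each way between the overload differences. Outside that rule, and after their values were seen, the text names Adam19, Adamts15, Adipoq, Angptl4, Ccnd1, Ccne1, Chrna1, Chrne, Fbxo32, Fn1, Gmnn, Htra1, Isg15, Jun, Klf9, Mcm2, Mki67, Nr1d1, Nr3c1, Ogn, Pdgfra, Runx1, Vcan and ENSRNOT00000040702. Alternatives were normexp, quantile or median scaling, the authors' table, looser filters on spots and dim probes, the mean over probes, spots near the edge left out, the smallest difference between spots, and a 1.5-fold threshold.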

Additional observations from a re-analysis of the deposited data

Results flagged for a closer look

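The overload difference had opposite signs in regenerated and uninjured soleus for 3 genes past 1.5-fold in both. Myh4 was 2.18-fold lower with overload in regenerated soleus and higher with overload in uninjured soleus, so that the first difference less the second was -2.52 on the log2 scale. For Chad it was 1.55, with a higher level after overload in regenerated and a lower one in uninjured soleus. For Tpm1 it was 1.71, in the same direction as Chad, on a probe whose overload difference in regenerated soleus (1.12) was larger than that of the gene's other probe (0.44). With 1 array per group the difference was not tested for any of the 3.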

How the results depend on the processing

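The main counts were 124 genes 2-fold higher, 23 lower and 72 whose overload differences differed 2-fold. They also held 13 lists with a median 1.25-fold or more away from that of all genes, and 37 named genes past 2-fold. For the genes normexp background correction gave 55, 9 and 35, and 23 named genes. Keeping probes with 1 spot gave 48 lower genes and 110 that differed between the muscles. Asking for signal on at least 1 array gave 46 and 251, and no filter on dim probes gave 397 higher, 281 lower and 2846 that differed. The smallest difference between spots gave 82 higher, 12 lower and 7 lists. At 1.5-fold the counts were 424 and 172. Trim16 became 0.0128 without spots in the outer 16 rows, close to the value given above for its other probe. The median of the cardiac list became -0.091 with no filter on dim probes, whereas the main rule kept 3 of its 6 members on the array. The cause was not tested for these, nor for the counts. With normexp, Enc1 (-0.98), Wnt16 (-0.88), Dgat2 (-0.98), Anxa10 (-0.90) and Procr (-0.77) also lay under 2-fold, and Myh4, Mt3, C1qtnf3 and Crabp2 had too few spots away from the outer rows to be measured. Quantile and median scaling and the authors' table moved none of the 96 genes and 63 lists tried by more than the spread between spots. By the same measure normexp moved 48 genes and left 48, and moved 4 lists and left 59. The smallest difference between spots moved 21 genes and left 75, and moved 5 lists and left 58. No paired analysis was possible because each group has 1 array. Weak signal limits the dimmest genes most, and variation between animals cannot be seen.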

Other observations

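Hormone and secretory granule genes included a few differences among dim transcripts. In the list of 10 kept genes the highest value was 0.95 and the lowest -0.80, and the median was 0.20. Smooth muscle and pericyte genes had a median of 0.16 with none of 14 kept members past 1.5-fold, and basement membrane and integrin genes a median of 0.12 with none of 17 past it, against the median of -0.02 over all genes. Cholesterol and sterol genes had a median of 0.16 over 21 kept members, 1 of them 1.5-fold or more higher.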
